A study of Homo sapiens with 10 samples.

Results

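Genes of the nuclear pore and of the receptors that carry cargo through it were followed in ST486, a human Burkitt's lymphoma line, after lentiviral delivery of a short hairpin RNA (shRNA). Members were all genes whose platform annotation gave a probe set to a single gene with a symbol of the NUP (followed by a digit), KPNA, KPNB, IPO, XPO, TNPO or RANBP families, or RAN, RANGAP1, RCC1, CSE1L, TPR or RAE1. The rule found 45 genes, with 60 probe sets, of 8226 genes on the array, and 1 main probe set per gene was used, the one with the highest mean over all arrays. They comprised 18 pore genes, 16 import genes, 5 export genes, 5 genes of the Ran cycle and RANBP9, a Ran-binding scaffold. NXF1 and NUTF2, which the rule also names, were not analysed here. One group received the STK38 shRNA (Sigma TRCN0000010215) and the other the non-target control shRNA (Sigma SHC002), each with 5 arrays of RNA taken at 60 h, in the same line and vector system. The labels name 1 hairpin against STK38, and they do not say whether replicates were separate cultures, so p-values measure only how these arrays scatter, and that scatter may be technical. Values are deposited log2 expression values of Affymetrix U95Av2 arrays. RNA of many cells was measured together, so that less RNA of a gene per cell and fewer cells with it cannot be told apart.

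The nuclear pore complex is a ring of nucleoporins that spans the nuclear envelope, with a scaffold, a central channel lined by phenylalanine-glycine repeats, filaments on the cytoplasmic side and a basket on the nuclear side. Importins bind cargo in the cytoplasm and release it when they meet Ran bound to GTP in the nucleus; exportins bind cargo together with that form of Ran. RCC1 loads Ran with GTP on chromatin, and RANGAP1 with RANBP1 drives GTP hydrolysis outside the nucleus, which gives transport its direction. MYC, the translocated oncogene of Burkitt's lymphoma and the subject of the study's question about the kinase STK38, binds the E-box CACGTG together with MAX.

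The promoters of members that carry this E-box are shown because the study asks about MYC activity. RefSeq windows of 300 bases (250 before to 50 after a start, GRCh38.p14) were found for 40 of the 45 members, 51 windows in all, and 10 members had more than 1 window. KPNA4, KPNA5, KPNB1, RANBP1 and XPO7 had no entry. Below are those of the 4 genes with an E-box that were lower with the STK38 shRNA, and that of RAN, the GTPase itself, which was not called. Of these 4 calls, that of IPO7 was lost in 11 other settings and that of XPO1 in 5. Capitals mark CACGTG, which reads the same on both strands.
IPO7 promoter, chr11:9384402-9384701, plus strand: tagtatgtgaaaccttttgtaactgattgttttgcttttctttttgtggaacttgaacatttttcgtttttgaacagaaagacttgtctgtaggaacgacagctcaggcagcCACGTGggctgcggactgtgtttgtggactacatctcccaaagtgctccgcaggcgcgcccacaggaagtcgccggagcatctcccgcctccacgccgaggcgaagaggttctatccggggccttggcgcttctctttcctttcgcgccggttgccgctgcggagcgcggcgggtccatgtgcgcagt
KPNA3 promoter, chr13:49792633-49792932, minus strand: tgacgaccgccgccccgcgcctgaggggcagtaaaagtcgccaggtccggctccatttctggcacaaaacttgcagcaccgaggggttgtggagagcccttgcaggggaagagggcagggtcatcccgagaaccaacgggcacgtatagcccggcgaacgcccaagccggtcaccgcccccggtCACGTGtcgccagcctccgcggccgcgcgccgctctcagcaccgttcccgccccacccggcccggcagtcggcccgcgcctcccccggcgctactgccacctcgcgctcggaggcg
RCC1 promoter, chr1:28517976-28518275, plus strand: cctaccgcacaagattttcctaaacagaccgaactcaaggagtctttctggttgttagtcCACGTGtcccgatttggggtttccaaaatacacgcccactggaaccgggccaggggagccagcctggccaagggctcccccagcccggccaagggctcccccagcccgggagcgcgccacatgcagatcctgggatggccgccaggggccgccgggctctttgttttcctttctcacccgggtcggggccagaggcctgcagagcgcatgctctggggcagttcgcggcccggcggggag
XPO1 promoter, chr2:61537038-61537337, minus strand: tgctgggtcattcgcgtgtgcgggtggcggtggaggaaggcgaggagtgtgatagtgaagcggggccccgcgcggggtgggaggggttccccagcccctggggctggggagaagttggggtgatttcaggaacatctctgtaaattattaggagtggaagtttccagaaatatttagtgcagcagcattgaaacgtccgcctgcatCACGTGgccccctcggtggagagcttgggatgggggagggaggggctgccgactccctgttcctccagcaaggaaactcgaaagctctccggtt
RAN promoter, chr12:130871816-130872115, plus strand: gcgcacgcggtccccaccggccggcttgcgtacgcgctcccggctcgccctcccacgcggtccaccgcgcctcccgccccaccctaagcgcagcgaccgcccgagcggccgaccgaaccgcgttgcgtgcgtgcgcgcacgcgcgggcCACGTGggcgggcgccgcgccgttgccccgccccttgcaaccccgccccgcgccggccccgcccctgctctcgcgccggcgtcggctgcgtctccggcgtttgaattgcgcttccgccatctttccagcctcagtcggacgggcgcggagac

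The E-box began 138 bases before the start in IPO7, 66 in KPNA3, 190 in RCC1, 44 in XPO1 and 102 in RAN. It was also found in NUP188, NUP50 and TNPO2, so that 8 of 40 members held it in a window, beside 13.1% of the 4493 fitted genes with a window. Counted by window, the share was 8 of 51 (15.7%) for members and 7.26% of all 35116 windows of the table. Among members called lower 4 of 14 held it, among those called higher 0 of 3, and among those not called 4 of 23. The core of the ETS family site, CCGGAAG on either strand, was in 9 of 40 members (22.5%), among them NUP88, XPOT and TNPO3, and in 21.1% of the fitted genes with a window. Such matches of letters are descriptions, not sites.

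STK38 mRNA, the target of the hairpin, had log2 values of 2.95, 2.90, 2.95, 2.46 and 2.88 in the STK38 shRNA arrays, against 5.24, 4.80, 4.85, 4.92 and 5.28 in the non-target arrays, with no overlap. This main probe set differed by -2.19. Other STK38 probe sets fell less, at -1.16 (adjusted p = 0.00110) and -0.82 (adjusted p = 0.00407), also without overlap. MYC differed by -1.38 on the log2 scale (adjusted p = 9.56e-06). Array medians lay between 2.12 and 2.25. STK38 shRNA replicate 4 stood apart, with a mean correlation of 0.982 with its own group, whereas pairs of the other 4 gave 0.995 to 0.997. Its 75th percentile was 3.53, and that of all other arrays 3.91 to 4.01. Member calls lost or gained without it are given with and without it, and other values rest on all arrays unless stated. Of 7 B cell markers measured, 6 were above the array background (the 90th percentile of 23 control probe sets) on all arrays and PAX5 on none. The mean level of the 7 was 6.18 to 6.38 in STK38 shRNA arrays and 6.50 to 6.64 in non-target arrays. The markers did not move together: MME (-1.60) and IGHM (-0.48) were called lower and CD79A (0.49) higher. CD79B, CD22 and MS4A1 were not called, and PAX5 was not fitted. Of 4 T cell markers CD3E and CD3D were above background on no array, CD247 on 1 non-target array and LCK on 4 STK38 shRNA and 5 non-target arrays. That list averaged 1.88 to 2.12 in STK38 shRNA arrays and 2.36 to 2.55 in non-target arrays without overlap, and LCK fell 2.33-fold (adjusted p = 0.000383); CD247 was called lower as well. Of 4 epithelial markers KRT8 was above background on all 10 arrays and was not called (adjusted p = 0.258). KRT18 exceeded background on STK38 shRNA replicate 4 alone, at 2.81, beside 1.96 to 2.20 on the remaining STK38 shRNA arrays. The epithelial list averaged 2.60 on replicate 4, 2.34 to 2.50 on the remaining STK38 shRNA arrays and 2.25 to 2.43 on non-target arrays. The erythroid marker HBB was above background on none. Of 4 monocyte markers only ITGAM exceeded background, on STK38 shRNA replicate 4 alone. On STK38 shRNA replicate 4 that list averaged 2.29, beside 1.82 to 1.96 on the remaining STK38 shRNA arrays and 1.79 to 2.00 on non-target arrays. ITGAM, at 3.49 on replicate 4 and 2.18 to 2.38 on the other STK38 shRNA arrays, had most of that difference. LYZ, below background on every array, was also highest on replicate 4, at 2.05 beside 1.76 to 1.95 on those arrays. The CSF1R and CD14 values of replicate 4 lay within the range of those arrays. All arrays came from the same line, and the part of these marker signals in the results was not tested.

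Transport genes were more often lower than higher with the STK38 shRNA. All 45 main probe sets passed the filter on low values. By limma, with Benjamini-Hochberg adjustment over 7535 probe sets and a threshold of 0.05, 16 members fell and 5 rose, 46.7% of the 45. In the same comparison 31.0% of 5403 genes were called with 1 main probe set each, 15.8% lower and 15.2% higher, against 35.6% lower and 11.1% higher among the members. The 2 groups did not overlap at 17 members, 13 lower and 4 higher, where 23.0% of all genes did not overlap. The median log2 fold change was -0.06 over the members, where it was 0.02 over all 5403 genes, so the median member moved little. The falls reached -1.85 (CSE1L) and the rises 0.58 (TNPO3). Without STK38 shRNA replicate 4, 15 members fell and 9 rose, where the whole set of genes had 17.0% lower and 21.8% higher (38.8% in all). Of the 21 members called with all arrays, 20 were called again in the same direction; IPO7 was not. NUP98, IPO13, KPNA5 and RANBP6 were then called higher as well.

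**Figure D1:**
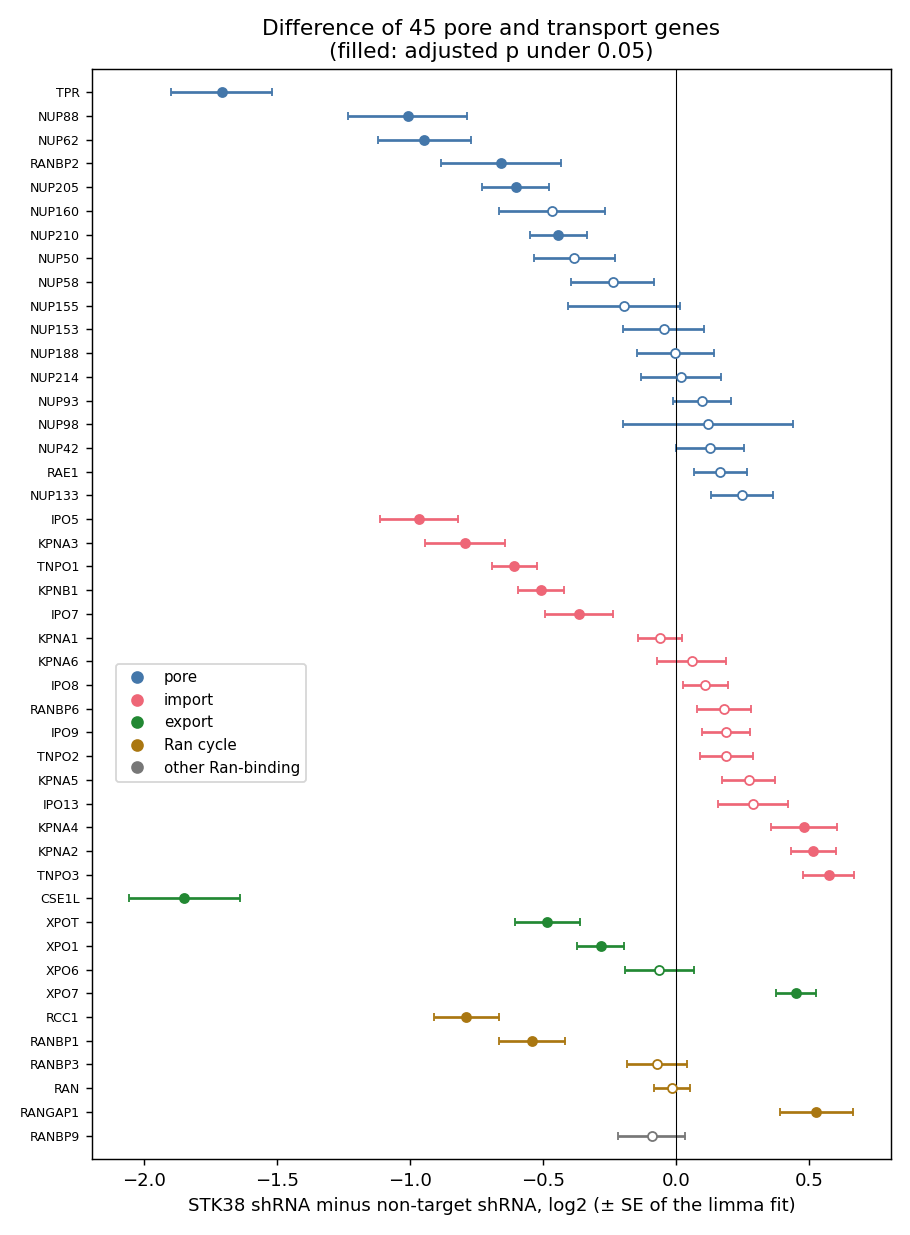
Log2 difference between the STK38 shRNA and non-target arrays (horizontal axis, points with the SE of the limma fit, 5 arrays a group) for each of the 45 genes, ordered within role classes. Filled points had an adjusted p under 0.05. CSE1L (-1.85) and TPR (-1.71) lie far to the left, and TNPO3 (0.58) farthest to the right.

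**Figure D2:**
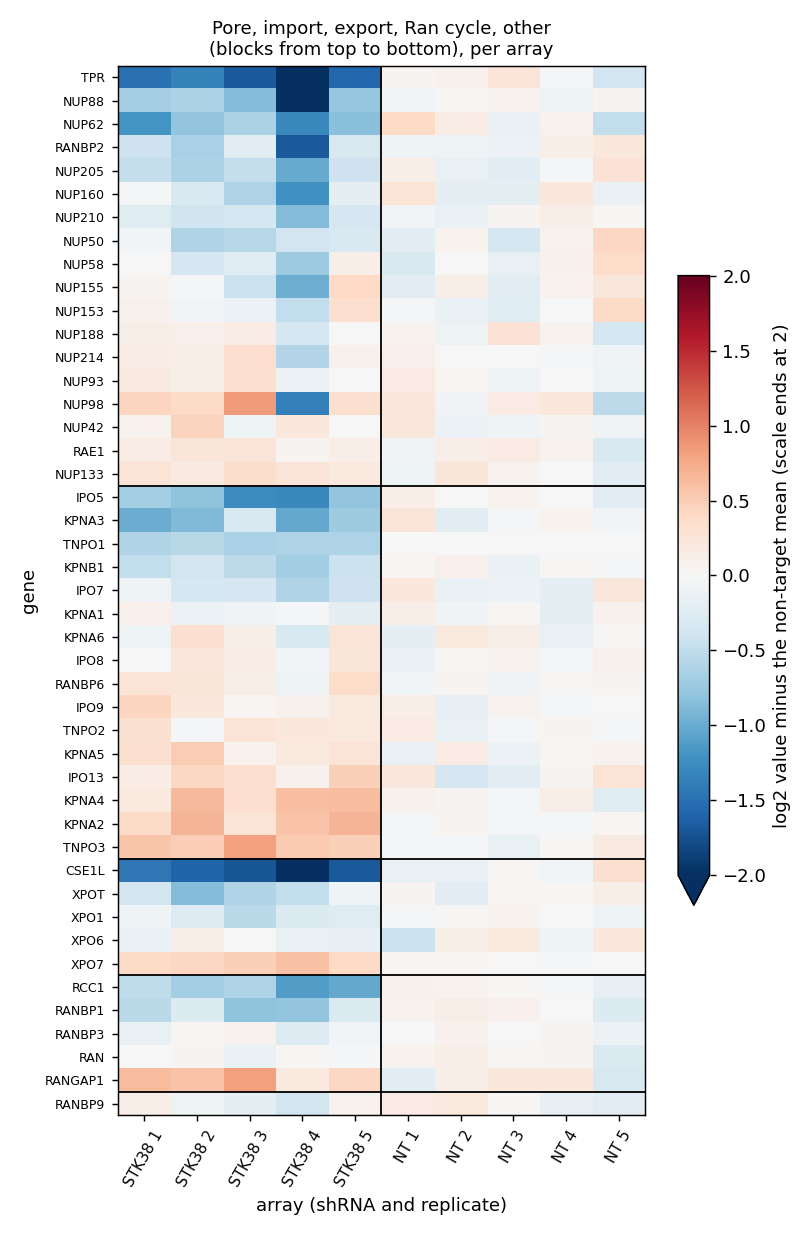
Log2 value of each gene (rows, grouped by role) on each array (columns) minus its mean in the 5 non-target arrays, as colour from blue (lower) to red (higher). TNPO1, XPO7 and KPNA2 have like colours on all 5 STK38 shRNA arrays, and replicate 4 is darker blue than the other 4 at NUP88 and RANBP2. At NUP98 replicate 4 is blue and the other 4 are red.

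Among the pore genes 6 of 18 fell and 0 rose. The share called, 33.3%, was near the 31.0% of all genes, of which 15.8% were lower and 15.2% higher. Of the pore genes 9 had an unadjusted p under 0.05. That count was not made over all genes, so it cannot be read as a result about pore genes. TPR, the coiled-coil protein of the nuclear basket, changed most. Its log2 values were 3.59, 3.72, 3.40, 2.63 and 3.51 in the STK38 shRNA arrays, against 5.14, 5.17, 5.33, 5.05 and 4.70 in the non-target arrays. Every STK38 shRNA array lay below every non-target array, and TPR fell 3.27-fold (log2 difference -1.71, SE 0.19, adjusted p = 9.55e-06). It exceeded background on 4 STK38 shRNA arrays. Without replicate 4 the difference was -1.52 (adjusted p = 8.37e-08). NUP153, the other basket nucleoporin measured, had -0.05 (adjusted p = 0.875), and NUP50, which binds the basket and importin alpha, -0.38 (adjusted p = 0.0776); neither passed the test.

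Among 6 nucleoporins of the cytoplasmic side and the channel 3 fell, NUP88, NUP62 and RANBP2, and 3 did not pass the test. NUP88, which anchors part of the cytoplasmic filaments, had 5.18, 5.20, 4.98, 3.74 and 5.06 in the STK38 shRNA arrays, against 5.78, 5.87, 5.91, 5.73 and 5.90 in the non-target arrays. It fell 2.01-fold (log2 difference -1.01, SE 0.22, adjusted p = 0.00315), and replicate 4 was by far the lowest array. Without that array the difference was -0.74 (adjusted p = 1.37e-05). A second NUP88 probe set was not above background on any array. NUP62, a repeat protein of the central channel, had 2.78, 3.18, 3.34, 2.69 and 3.13 in the STK38 shRNA arrays, against 4.37, 4.11, 3.84, 4.05 and 3.48 in the non-target arrays. NUP62 fell 1.93-fold (log2 difference -0.94, SE 0.17, adjusted p = 0.000767), again with no overlap. RANBP2, the large filament protein that binds Ran and acts in SUMO transfer, had 3.21, 2.98, 3.42, 1.94 and 3.30 in the STK38 shRNA arrays, against 3.53, 3.53, 3.50, 3.74 and 3.83 in the non-target arrays. It fell 1.58-fold (log2 difference -0.66, SE 0.23, adjusted p = 0.0385), and exceeded background on 4 STK38 shRNA arrays. Without replicate 4 it differed by -0.40 (adjusted p = 0.0125). The call was lost in 8 settings, with any 1 non-target array or STK38 shRNA replicate 2 left out, with arrays centred on their medians and with no filter, where adjusted p was 0.0516 to 0.0900, and near-identical RGPD copies can share its probes. The filament partner of NUP88, NUP214, had 0.02 (adjusted p = 0.949), NUP42 had 0.13 (adjusted p = 0.532) and NUP58, a channel partner of NUP62, -0.24 (adjusted p = 0.303), none past the threshold.

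In the scaffold 2 genes fell. NUP205, a large protein of the inner ring, had 6.88, 6.71, 6.87, 6.34 and 6.93 in the STK38 shRNA arrays, against 7.48, 7.20, 7.12, 7.30 and 7.63 in the non-target arrays. The groups did not overlap and NUP205 fell 1.52-fold (log2 difference -0.60, SE 0.13, adjusted p = 0.00215). NUP210, a membrane-spanning nucleoporin, had 7.96, 7.79, 7.84, 7.33 and 7.87 in the STK38 shRNA arrays, against 8.15, 8.07, 8.25, 8.31 and 8.22 in the non-target arrays. It fell 1.36-fold (log2 difference -0.44, SE 0.11, adjusted p = 0.00543); a second NUP210 probe set was not above background, and the mean of the 2 probe sets had -0.23 (adjusted p = 0.0537), which did not pass. The inner ring partners NUP188, NUP93 and NUP155 had -0.00 (adjusted p = 0.995), 0.10 (adjusted p = 0.569) and -0.19 (adjusted p = 0.565). In the outer ring NUP160 had -0.46 (adjusted p = 0.0961) and NUP133 0.25 (adjusted p = 0.128). NUP98, a mobile repeat protein, and its binding partner RAE1, which act in mRNA export, had 0.12 (adjusted p = 0.834) and 0.17 (adjusted p = 0.242). NUP98 values were 4.75, 4.69, 5.17, 2.94 and 4.64 in the STK38 shRNA arrays, against 4.54, 4.25, 4.47, 4.53 and 3.79 in the non-target arrays. Replicate 4 was the lowest array and the other 4 lay above all non-target arrays, and without replicate 4 NUP98 was called higher, by 0.50 (adjusted p = 0.0186). A second, dim NUP98 probe set did not show this rise. It had -0.05 with all arrays (adjusted p = 0.860). Its STK38 shRNA values other than replicate 4, 2.10 to 2.49, overlapped the non-target values of 1.94 to 2.39.

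The median log2 fold change of the pore genes was -0.22 with all arrays and -0.06 without replicate 4. On single STK38 shRNA arrays, the median distance of pore genes from the non-target mean was 0.03, -0.18, -0.22, -0.80 and -0.01 for replicates 1 to 5, and the non-target arrays lay between -0.10 and 0.07. The median of the class therefore overlapped between groups, while TPR, NUP88, NUP62, RANBP2, NUP205 and NUP210 were called lower with or without that array.

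**Figure D3:**
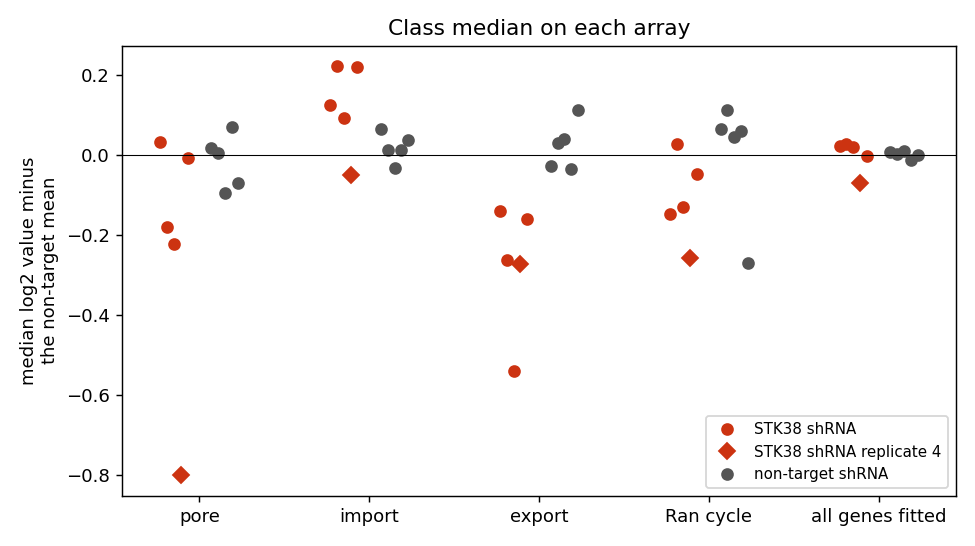
Median over the genes of a role class, and over all 5403 genes fitted, of the log2 value minus the non-target mean (vertical axis), 1 point per array. For pore genes STK38 shRNA replicate 4 (diamond) lies at -0.80 and the other 4 between -0.22 and 0.03.

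Import genes moved both ways, with 5 of 16 lower and 3 higher (50.0% called, beside 31.0% of all genes). Their median log2 fold change was 0.15. Without STK38 shRNA replicate 4 the balance turned, with 4 lower and 6 higher. Among all genes the balance also moved, from 15.8% lower and 15.2% higher to 17.0% lower and 21.8% higher. Whether the turn of import genes differed from that of all genes was not tested. Without replicate 4 falls still outnumbered rises among pore, export and Ran cycle genes. The import genes called higher only then, IPO13, KPNA5 and RANBP6, were dim, and none was above background on every array. Only 6 of the 16 were above background on all 10 arrays. IPO5, an importin for ribosomal proteins and histones, had 4.05, 3.93, 3.45, 3.45 and 3.94 in the STK38 shRNA arrays, against 4.86, 4.74, 4.80, 4.73 and 4.51 in the non-target arrays. IPO5 fell 1.95-fold (log2 difference -0.97, SE 0.15, adjusted p = 0.000139) without overlap. TNPO1, or transportin, imports proteins with a proline-tyrosine signal such as hnRNP A1. Its values were 5.51, 5.56, 5.46, 5.50 and 5.49 in the STK38 shRNA arrays, against 6.12, 6.12, 6.11, 6.10 and 6.10 in the non-target arrays. The arrays of each group lay close together and TNPO1 fell 1.52-fold (log2 difference -0.61, SE 0.086, adjusted p = 7.92e-05). A second TNPO1 probe set fell by 0.44 and the remaining one, dim on every array, had 0.06. IPO7, another importin of ribosomal proteins, had 5.51, 5.26, 5.27, 5.01 and 5.21 in the STK38 shRNA arrays, against 5.83, 5.48, 5.50, 5.43 and 5.84 in the non-target arrays, which overlapped. It fell 1.29-fold (log2 difference -0.36, SE 0.13, adjusted p = 0.0418), a call lost without replicate 4, -0.30 (adjusted p = 0.0542), and in 10 other settings, among them quantile normalization and leaving out non-target replicate 1, 3 or 5 or STK38 shRNA replicate 2, 3 or 5; adjusted p over the 11 was 0.0512 to 0.108.

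KPNB1, importin beta, carries the classical import complex. Its values were 2.10, 2.23, 2.07, 1.90 and 2.16 in the STK38 shRNA arrays, against 2.64, 2.69, 2.47, 2.63 and 2.56 in the non-target arrays. All STK38 shRNA arrays were below the non-target arrays and none of them exceeded background, where 4 non-target arrays did. The fall is thus given as at least 1.11-fold (adjusted p = 0.000468; the measured difference was -0.51). That bound sets the non-target mean against the higher of signal and background on each STK38 shRNA array.

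The importin alpha adaptors, which link classical cargo to importin beta, were called in 3 of 6 cases, with KPNA3 lower and KPNA2 and KPNA4 higher. KPNA3 had 3.49, 3.61, 4.16, 3.46 and 3.77 in the STK38 shRNA arrays, against 4.75, 4.26, 4.45, 4.55 and 4.43 in the non-target arrays. It fell 1.73-fold (log2 difference -0.79, SE 0.15, adjusted p = 0.000954). KPNA4, its closest relative in the family, had 2.90, 3.35, 3.05, 3.30 and 3.33 in the STK38 shRNA arrays, against 2.78, 2.76, 2.67, 2.84 and 2.45 in the non-target arrays. KPNA4 rose 1.40-fold (log2 difference 0.48, SE 0.12, adjusted p = 0.00779), and 4 of 5 non-target arrays were above background. KPNA2, the adaptor most linked to proliferating cells, had 8.40, 8.69, 8.29, 8.59 and 8.69 in the STK38 shRNA arrays, against 7.98, 8.07, 7.98, 7.98 and 8.06 in the non-target arrays. Every STK38 shRNA array exceeded every non-target array, and KPNA2 rose 1.43-fold (log2 difference 0.52, SE 0.084, adjusted p = 0.000251). KPNA5 had 0.27 (adjusted p = 0.0518), just above the threshold, with 0 non-target arrays above background, and was called higher without replicate 4, 0.29 (adjusted p = 0.0247). KPNA1 was not above background on any array, and KPNA6 had 0.06 (adjusted p = 0.795), with its 3 probe sets at 0.06 to 0.12.

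TNPO3, the importin of splicing factors of the SR family, rose. Its values were 7.07, 7.02, 7.34, 7.04 and 7.00 in the STK38 shRNA arrays, against 6.49, 6.49, 6.38, 6.55 and 6.70 in the non-target arrays. It rose 1.49-fold (log2 difference 0.58, SE 0.096, adjusted p = 0.000324) without overlap, and its second probe set rose by 0.55. The other import genes that were not called, IPO8, IPO9, IPO13, RANBP6 and TNPO2, had log2 fold changes of 0.11 to 0.29. IPO13, which carries cargo both ways, was called higher without replicate 4, 0.34 (adjusted p = 0.0379), as was RANBP6, 0.25 (adjusted p = 0.0244), with 4 STK38 shRNA and 0 non-target arrays above background.

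Export genes were lower in 3 of 5 and higher in 1 (80.0% called, beside 31.0% of all genes). Their median log2 fold change was -0.28. CSE1L, or CAS, returns importin alpha to the cytoplasm and had the largest change of all 45. Its values were 5.70, 5.52, 5.42, 4.31 and 5.45 in the STK38 shRNA arrays, against 6.99, 6.99, 7.15, 7.07 and 7.45 in the non-target arrays. The 5 non-target arrays stood at least 1.29 above the highest STK38 shRNA array on the log2 scale, and CSE1L fell 3.60-fold (log2 difference -1.85, SE 0.21, adjusted p = 1.11e-05). Without replicate 4 it fell by 1.61 (adjusted p = 7.46e-09). XPO1, or CRM1, the main exporter of proteins with a leucine-rich signal, had 7.44, 7.26, 6.98, 7.25 and 7.27 in the STK38 shRNA arrays, against 7.49, 7.55, 7.60, 7.53 and 7.43 in the non-target arrays. XPO1 fell 1.22-fold (log2 difference -0.28, SE 0.089, adjusted p = 0.0250), with overlap at replicate 1. That call was lost without NT replicate 2, 3 or 4 or STK38 shRNA replicate 3, or with no filter, where adjusted p was 0.0501 to 0.0637.

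XPOT exports transfer RNA. Its values were 7.52, 7.03, 7.28, 7.39 and 7.81 in the STK38 shRNA arrays, against 7.94, 7.66, 7.93, 7.92 and 8.00 in the non-target arrays. It fell 1.40-fold (log2 difference -0.48, SE 0.12, adjusted p = 0.00777) with overlap. XPO7, an exportin of wide cargo range, went the other way, with 7.38, 7.42, 7.48, 7.58 and 7.40 in the STK38 shRNA arrays, against 7.03, 7.03, 6.98, 6.96 and 6.98 in the non-target arrays. It rose 1.37-fold (log2 difference 0.45, SE 0.075, adjusted p = 0.000312), and the arrays of each group lay close together. XPO6, which exports actin, had -0.06 (adjusted p = 0.787).

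In the Ran cycle 2 of 5 genes fell and 1 rose (60.0% called, beside 31.0% of all genes), with a median of -0.07. RAN itself was not called at its main probe set, with 11.06, 11.11, 10.92, 11.08 and 11.03 in the STK38 shRNA arrays, against 11.13, 11.17, 11.10, 11.11 and 10.76 in the non-target arrays. These values overlapped (log2 difference -0.01, SE 0.068, adjusted p = 0.915). Its other probe sets had -0.21 (called lower, adjusted p = 0.0110) and -0.15 (adjusted p = 0.122), so the probe sets of RAN disagreed. RCC1, the exchange factor, had 6.43, 6.25, 6.32, 5.81 and 5.90 in the STK38 shRNA arrays, against 7.01, 7.00, 6.96, 6.90 and 6.77 in the non-target arrays. RCC1 fell 1.73-fold (log2 difference -0.79, SE 0.12, adjusted p = 0.000186) without overlap, and its second probe set fell by 0.73. RANBP1, the co-activator of hydrolysis, had 6.55, 6.81, 6.28, 6.30 and 6.79 in the STK38 shRNA arrays, against 7.15, 7.20, 7.17, 7.09 and 6.81 in the non-target arrays. RANBP1 fell 1.45-fold (log2 difference -0.54, SE 0.12, adjusted p = 0.00383), with the highest STK38 shRNA array just below the lowest non-target array. RANGAP1, the GTPase-activating protein, had 7.05, 6.98, 7.24, 6.61 and 6.84 in the STK38 shRNA arrays, against 6.19, 6.54, 6.63, 6.63 and 6.10 in the non-target arrays. RANGAP1 rose 1.44-fold (log2 difference 0.53, SE 0.14, adjusted p = 0.00856), with 1 STK38 shRNA array, replicate 4, inside the non-target range. RANBP3, a cofactor of XPO1, had -0.07 (adjusted p = 0.715), and RANBP9 -0.09 (adjusted p = 0.668).

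**Figure D4:**
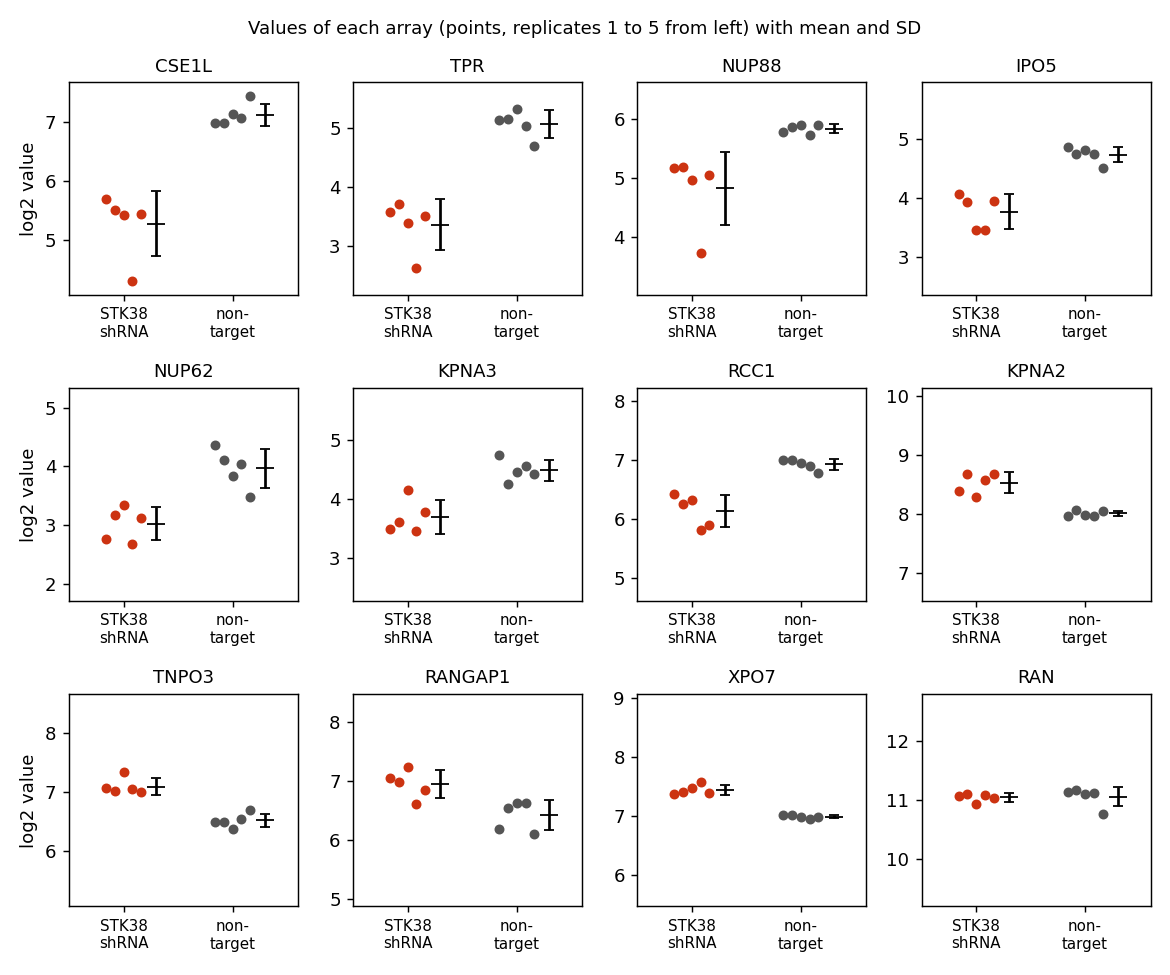
Log2 values (vertical axes, each panel spanning the same height) of 12 genes on the 5 STK38 shRNA arrays (left) and the 5 non-target arrays (right), with the mean and SD of each group. CSE1L, TPR, NUP88, IPO5, NUP62, KPNA3 and RCC1 are lower with the STK38 shRNA, KPNA2, TNPO3, RANGAP1 and XPO7 higher, and RAN overlaps.

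Some members that share a task were called in opposite directions. A total of 5 pairs were chosen for this after their values were seen, so no test is given. RANGAP1 (0.53) and RANBP1 (-0.54), which act together in GTP hydrolysis, were also called in opposite directions and are not among these pairs. Other members moved the same way, such as RCC1 (-0.79) and RANBP1 (-0.54), which act at different steps of the Ran cycle, or CSE1L (-1.85), KPNA3 (-0.79) and KPNB1 (-0.51). The KPNB1 fall is bounded only as at least 1.11-fold, since 0 STK38 shRNA arrays exceeded background. CSE1L minus KPNA2, the exporter and an adaptor it returns, had distances from the non-target mean of -3.39 to -1.82 in the STK38 shRNA arrays and -0.20 to 0.27 in the non-target arrays (mean change -2.37, log2). RCC1 minus RANGAP1, the factors that load Ran with GTP and clear it, had -1.45 to -1.14 in the STK38 shRNA arrays and -0.24 to 0.31 in the non-target arrays (mean change -1.32). The other 3 pairs are relatives by sequence family rather than partners. For KPNA3 minus KPNA4 the mean change was -1.27, for TNPO1 minus TNPO3 -1.18 and for XPO1 minus XPO7 -0.74. In each pair the 5 STK38 shRNA arrays lay below the 5 non-target arrays. For CSE1L minus KPNA2, KPNA3 minus KPNA4 and TNPO1 minus TNPO3 this was fixed in advance. Each of those genes already separated the groups, in opposite directions within a pair. For RCC1 minus RANGAP1 and XPO1 minus XPO7 the choice of opposite calls favoured it. Without replicate 4 the changes of CSE1L minus KPNA2 and RCC1 minus RANGAP1 were -2.11 and -1.32.

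**Figure D5:**
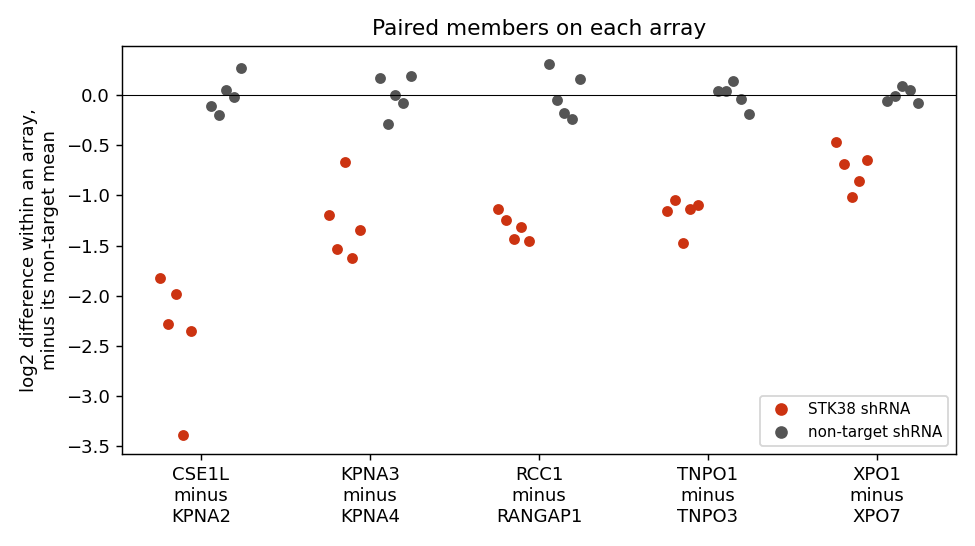
Difference of the log2 values of 2 genes within each array minus its non-target mean (vertical axis) for 5 pairs, 1 point per array. For CSE1L minus KPNA2 the STK38 shRNA arrays lie between -3.39 and -1.82, below all non-target arrays, which the choice of the pair fixed in advance.

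Other genes of the pore and of mRNA export were called at a share near that of all genes. Of 28 listed, 14 were on the array and 13 passed the filter, of which 2 rose and 1 fell (23.1% called, beside 31.0% of all genes). With quantile normalization or array weights 4 rose and 1 fell. Over all 7535 probe sets fitted, 1064 rose and 1192 fell in the main fit, 1214 and 1192 with quantile normalization, and 1619 and 1351 with array weights. POM121, a membrane nucleoporin whose copy POM121C can share probes, averaged 7.72 ± 0.12 in STK38 shRNA arrays and 7.40 ± 0.10 in non-target arrays (SD, n = 5 each) and rose by 0.32 on the log2 scale (limma adjusted p = 0.00822). NXT2, a partner of the mRNA export receptor, had 2.84 ± 0.27 in STK38 shRNA arrays and 2.47 ± 0.09 in non-target arrays (SD, n = 5 each; limma adjusted p = 0.0318). The NXT2 call was lost in 7 settings, 6 of them with 1 array left out, where adjusted p was 0.0503 to 0.0797. AHCTF1, or ELYS, which seeds pores on chromatin after mitosis, fell by 0.40 (adjusted p = 0.0204), a call lost without non-target replicate 1 or 2 or STK38 shRNA replicate 2 or 5, where adjusted p was 0.0506 to 0.0575. The difference between this list and the members was not tested.

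Of 12 nuclear lamina and envelope genes 11 were measured, of which 3 fell and 1 rose. The share called, 36.4%, was near the 31.0% of all genes. LMNB1, lamin B1, averaged 6.93 ± 0.30 in STK38 shRNA arrays and 7.99 ± 0.09 in non-target arrays (SD, n = 5 each) and fell 2.09-fold (limma adjusted p = 1.19e-05). LMNB2, lamin B2, averaged 7.42 ± 0.14 in STK38 shRNA arrays and 6.89 ± 0.05 in non-target arrays (SD, n = 5 each) and rose 1.45-fold (limma adjusted p = 0.000223). TMPO, which encodes the lamina-associated polypeptide 2 proteins, exceeded background on 0 STK38 shRNA arrays and all 5 non-target arrays, a fall of at least 1.53-fold (adjusted p = 3.80e-05). SYNE2, a linker of nucleus and cytoskeleton, fell by 0.46 (adjusted p = 0.0285), a call lost with the replicate block and without non-target replicate 4 or 5 or STK38 shRNA replicate 3 or 5, where adjusted p was 0.0503 to 0.0811. The 2 B-type lamins thus had opposite changes on these arrays.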

How the data were processed

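Total RNA of 10 arrays (5 per group) was measured on 1-colour Affymetrix U95Av2 arrays, as the labels state. The deposited log2 values come from the authors' processing with GCRMA and affy, per the submitters' processing notes, with no version given; that the scale is log2 follows from the range of the values and from that tool. GCRMA corrects background and normalizes between arrays, and it shrinks differences of dim genes. That normalization was kept.

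Gene names came from the platform table and were updated to RefSeq (GRCh38.p14) through Entrez identifiers: of 12558 probe sets without the 67 Affymetrix controls, 10943 had 1 gene, 545 several and 1070 none. Probe sets with a mean at or above the 40th percentile (1.93) entered the fit, 7535 in all. The groups were compared in R 4.3.3 with limma 3.58.1 (lmFit, eBayes with trend, 8 residual degrees of freedom, no covariate), two-sided, with Benjamini-Hochberg adjustment over these probe sets; adjusted p-values in the text are from that fit. A fold is the linear ratio of a log2 difference. The 17 members without overlap have the smallest two-sided exact permutation p that 5 against 5 arrays allow, 0.00794. Background was 2.36 to 2.66 by array and its percentile was chosen with values known. Arrays limit precision by their number. The code was tested on simulated data.

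Members, role classes and lists were chosen with earlier results of these data known. Every called member and RAN were given by array; KPNB1, RAN and XPO1 were named whatever their values. Alternatives covered scaling, filter, variance model, array weights, probe set choice, threshold, a replicate block and dropping single arrays. The pairs, and SYNE2 and NUP98 by array, were chosen after their values were seen.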

Additional observations from a re-analysis of the deposited data

Results flagged for a closer look

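Of 90 groups of 5 arrays, 2 for each of the 45 members, 10 held an array whose gap to its nearest neighbour exceeded 0.71 of the range of the group, Dixon's 95% critical value; chance gives about 1 in 20. STK38 shRNA replicate 4 was that array in 6 of them, each time as the lowest. Its log2 value was 7.33 for NUP210 (others 7.79 to 7.96), 2.56 for NUP214 (others 3.23 to 3.48), 3.74 for NUP88 (others 4.98 to 5.20), 2.94 for NUP98 (others 4.64 to 5.17), 2.63 for TPR (others 3.40 to 3.72) and 4.31 for CSE1L (others 5.42 to 5.70). For TNPO3, STK38 shRNA replicate 3 stood highest at 7.34 (others 7.00 to 7.07).

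Among non-target arrays, replicate 2 was lowest for XPOT at 7.66 (others 7.92 to 8.00). Non-target replicate 5 was lowest for RAN at 10.76 (others 11.10 to 11.17) and for RANBP1 at 6.81 (others 7.09 to 7.20).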

How the results depend on the processing

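Of 801 values of single members under an alternative, 762 kept their direction or stayed uncalled on the same side of the threshold, 25 lost a call, 14 gained one and 0 reversed a call. The calls that changed were those of IPO7, RANBP2, XPO1 and NUP210, which were lost in 11, 8, 5 and 1 settings, and those of IPO13, IPO9, KPNA5, NUP160, NUP50, NUP98 and RANBP6, which were gained in some; the cause was not tested. The count of members called higher was 9 with array weights, which gave STK38 shRNA replicate 4 the lowest weight, and 7 of the 9 were import genes. With single arrays left out that count ran from 5 to 9 over all members, from 3 to 6 among import genes and from 0 to 1 among pore genes, the highest each time without STK38 shRNA replicate 4. Over all 7535 probe sets fitted, those called higher also rose, from 1064 in the main fit to 1619 with array weights. With single arrays left out they ran from 867 to 1559, again the highest without STK38 shRNA replicate 4. The count of members called lower ran from 14 to 18. The import median became -0.0363 with a filter at the 60th percentile, since that leaves out dim genes. In the other pore and mRNA export list the count of rises was 1 with arrays centred on their medians, 4 with quantile normalization, 4 with array weights, 1 at an adjusted p under 0.01, and 1 to 4 with single arrays left out; the count of falls was 0 at an adjusted p under 0.01 and 0 to 1 with single arrays left out. Rises in the lamina list were 2 with quantile normalization, 3 with array weights, and 1 to 2 with single arrays left out; falls there were 2 with the replicate block and 2 to 3 with single arrays left out. The replicate numbers of the 2 groups match only as numbers: deviations of same-numbered arrays correlated at -0.21 to 0.19. With the replicate block 5 members were higher and 16 lower. Dim signal limits 15 of the 45 members, which were not above background on every array; KPNA1 was above it on none.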
